A study of Rattus norvegicus with 9 samples.

Results

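Interferon-induced genes were followed in the kidneys of 9 rats through Mx1, Mx2, Usp18, Irf1, Irf7, Stat2, Ifit3, Gbp2 and Isg15. Every probe set whose single gene symbol in the platform annotation was one of these names was taken, and each was kept apart. This gave 10 probe sets for 8 genes, of 15923 probe sets on the array, and 8 of the 10411 genes that a single symbol names. Isg15, which encodes a ubiquitin-like modifier, had no probe set under this rule and is not analysed here. Total RNA of whole kidney from 4 case animals and 5 control animals was hybridised to Affymetrix RAE230A arrays, with 1 array per animal. A probe set is a collection of short oligonucleotides against 1 transcript, and some genes have more than 1. The series concerns hypotension. The labels name each animal only as case or control and give no strain, age, sex, agent, dose or time, so it is not known here how the case animals differed from the controls in handling. The deposited value is 1 signal per probe set on a linear scale in arbitrary units, already scaled to a common mean per array.

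Interferons are secreted proteins that cells release on sensing foreign or misplaced nucleic acid, or, for interferon gamma, that lymphocytes release. They bind surface receptors coupled to Janus kinases, which phosphorylate STAT transcription factors. Type I interferon acts through a complex that contains STAT2 and IRF9 and binds the interferon-stimulated response element, and interferon gamma acts mainly through the gamma-activated sequence. Many of the induced genes are expressed at a low level in resting tissue, and in kidney both epithelial and immune cells can express them. In RNA from a whole organ, fewer cells of a type and less RNA per cell cannot be told apart.

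Promoter sequences are shown because the transcription factors of the pathway are known through the short elements they bind. RefSeq promoters of the GRCr8 assembly, from 250 bases before to 50 after the annotated start, were matched by symbol for 6 of the 8 measured genes, namely Mx1, Ifit3, Gbp2, Stat2, Irf1 and Irf7. They were searched on both strands for the core of the response element, GAAANNGAAA, which reads TTTCNNTTTC on the opposite strand, and for the gamma-activated sequence TTCNNNGAA, which is its own reverse complement. No match of either element overlapped another in these windows. Ifit3 (chr1:241527252-241527321, plus strand), Gbp2 (chr2:234005666-234005735, plus strand) and Irf7 (chr1:205800053-205800122, minus strand) each held 1 match of the response element, and Irf1 (chr10:38417763-38417831, plus strand) held 1 match of the gamma-activated sequence. The stretches around these matches are given 5′ to 3′ on the strand of the gene, with the matched bases in capitals.
Ifit3: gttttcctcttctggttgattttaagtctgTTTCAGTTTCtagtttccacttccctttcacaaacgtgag
Gbp2: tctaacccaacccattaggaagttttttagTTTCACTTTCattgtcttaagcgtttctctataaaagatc
Irf7: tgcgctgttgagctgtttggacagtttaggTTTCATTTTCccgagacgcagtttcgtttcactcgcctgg
Irf1: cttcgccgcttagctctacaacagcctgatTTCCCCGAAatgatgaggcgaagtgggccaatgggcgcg

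The match began 44 bases before the annotated start in Ifit3, 31 in Gbp2, 69 in Irf7 and 142 in Irf1. Of 33469 promoters of the same length in the table, 3.92% held the response element and 8.87% the gamma-activated sequence. The windows of Mx1 and Stat2 held neither string of letters. The window of Mx1 (chr11:50294557-50294856, minus strand) is given whole, because this gene had the smallest p of the set in the comparison that follows.
Mx1: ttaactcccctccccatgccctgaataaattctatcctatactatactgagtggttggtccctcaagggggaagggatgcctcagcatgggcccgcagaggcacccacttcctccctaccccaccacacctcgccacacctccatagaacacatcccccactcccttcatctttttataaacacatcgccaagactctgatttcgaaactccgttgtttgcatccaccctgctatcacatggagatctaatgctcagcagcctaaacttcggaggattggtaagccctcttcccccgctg

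The comparison asked whether the signals of the interferon-induced genes differed between case and control kidneys. At 7 of the 10 probe sets the estimate was lower in case. By the ratio of mean signals Mx1 was lowest, at 53.9% of the control mean, then Gbp2 at 63.2%, 1 Mx2 probe set at 66.9% and Usp18 at 70.0%. By the log2 difference this Mx2 probe set, at -0.53, came before Gbp2, at -0.50. Irf1, Irf7 and Ifit3 lay between 78.2% and 87.8% of the control mean, and both Stat2 probe sets and the other Mx2 probe set between 99.4% and 102.8%. No member passed the test across all probe sets. Differences were tested with limma on log2(signal + 5.03), over the 9519 probe sets whose mean log2 value over all 9 animals exceeded the 40th percentile, corresponding to a signal of about 33.3. Of the 10 probe sets, 6 were above this filter, and these 6 stood for Mx1, Mx2, Usp18, Stat2, Irf1 and Irf7. With Benjamini-Hochberg adjustment over the 9519, 0 of the 6 had an adjusted p under 0.05, against 0% of all probe sets tested, and no probe set had an adjusted p smaller than 0.136. Of the 6, 3 were lower in case at an unadjusted p under 0.05 and 0 higher, where 3.81% of all probe sets tested were lower at that level. Because the filter uses the mean of all animals, a dim probe set can pass it through the group in which it is brighter.

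Mx1 encodes a dynamin-like GTPase induced by type I interferon that restricts some RNA viruses. Its signal at 1371015_at was 36.0, 46.5, 29.1 and 38.1 in case animals 3, 5, 7 and 8, against 71.6, 97.2, 58.6, 71.5 and 48.3 in control animals 4, 9, 10, 11 and 12. Every case animal lay below every control animal, with the gap of 46.5 in case animal 5 to 48.3 in control animal 12 being narrow. The means were 37.4 ± 7.17 in case (SD, n = 4) and 69.4 ± 18.3 in control (SD, n = 5). The log2 difference was -0.79 ± 0.20 (SE), with a 95% interval from -1.23 to -0.36 and a limma adjusted p of 0.530. Over the 21 alternative settings that gave a value the difference stayed between -0.90 and -0.58, with limma adjusted p from 0.108 to 0.9998.

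Mx2, a second GTPase of the family, was read by 2 probe sets that differed from each other. At 1369202_at the signal was 44.5, 37.3, 23.9 and 31.6 in case animals 3, 5, 7 and 8, against 59.4, 41.2, 55.1, 60.6 and 40.3 in control animals 4, 9, 10, 11 and 12. The groups overlapped only through case animal 3, which lay above control animals 9 and 12. The log2 difference was -0.53 ± 0.20 (SE), with a 95% interval from -0.96 to -0.09 and a limma adjusted p of 0.644. At 1387283_at, below the filter, the signal was 19.1, 19.9, 24.6 and 17.8 in case animals, against 6.7, 32.5, 22.3, 18.0 and 22.9 in controls in the same order. The control values there span those of all 4 case animals, and the log2 difference was 0.08 with an interval from -0.59 to 0.75. Both probe sets are annotated to the same transcript accession. In the RefSeq gene table Mx1 and Mx2 lie on chromosome 11 with 1 annotated gene between them, and whether the probes of these related genes bind each other's transcripts was not tested.

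Ifit3 and Gbp2 encode effector proteins. IFIT proteins bind viral RNA or the adaptors that signal its presence, and Gbp2 is a guanylate-binding GTPase induced most strongly by interferon gamma. Both probe sets were below the filter and have no adjusted p. Ifit3 signal was 33.0, 28.5, 21.4 and 27.4 in case animals 3, 5, 7 and 8, against 45.2, 39.3, 39.2, 25.5 and 27.0 in control animals 4, 9, 10, 11 and 12. Control animals 4, 9 and 10 lay above every case animal, while control animals 11 and 12 lay among them. The Gbp2 signal was 14.8, 22.4, 12.8 and 24.0 in the case animals, against 25.7, 43.7, 30.1, 34.2 and 12.7 in the controls. Here 4 of the 5 controls lay above every case animal, and control animal 12 was the lowest of all 9. The log2 differences were -0.29 for Ifit3, with an interval from -0.77 to 0.19, and -0.50 for Gbp2, with an interval from -1.15 to 0.15, so both intervals include 0.

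Usp18 encodes the protease that removes ISG15 from its targets and also damps signalling at the type I interferon receptor. Its signal was 57.0, 54.7, 40.5 and 49.0 in case animals 3, 5, 7 and 8, against 60.4, 60.8, 74.6, 91.6 and 71.8 in control animals 4, 9, 10, 11 and 12. The groups did not overlap, and case animal 3 and control animal 4 were separated by a few units. The means were 50.3 ± 7.35 in case (SD, n = 4) and 71.8 ± 12.8 in control (SD, n = 5). The log2 difference was -0.47 ± 0.16 (SE), with an interval from -0.82 to -0.12 and a limma adjusted p of 0.644. Mx1 and Usp18 were the 2 of the 6 probe sets above the filter whose groups did not overlap with case lower, where 0.903% of all probe sets tested had such groups.

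Stat2 encodes the transcription factor that joins IRF9 downstream of the type I receptor. At 1389571_at its signal was 157.5, 117.8, 85.2 and 154.3 in case animals 3, 5, 7 and 8, against 125.5, 120.6, 149.0, 94.4 and 136.7 in control animals 4, 9, 10, 11 and 12. The case animals spread more widely than the controls and lay on both sides of them. The log2 difference was 0.01 ± 0.19 (SE), with an interval from -0.39 to 0.42 and a limma adjusted p of 0.998. The other Stat2 probe set, 1373670_at, was below the filter and ran from 12.2 in case animal 5 to 63.5 in case animal 3, and from 6.2 in control animal 10 to 53.7 in control animal 12. Its log2 difference of 0.04 had an interval from -1.03 to 1.11, which leaves its direction undetermined.

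Irf1 and Irf7 encode interferon regulatory factors, of which Irf1 is induced by interferon gamma and Irf7 amplifies type I interferon production. Irf1 signal was 88.9, 105.7, 58.7 and 64.1 in case animals 3, 5, 7 and 8, against 127.5, 105.3, 77.1, 71.8 and 103.7 in control animals 4, 9, 10, 11 and 12. Case animals 7 and 8 lay below every control, while case animals 3 and 5 lay among them. The log2 difference of Irf1 was -0.28 ± 0.21 (SE, limma adjusted p = 0.859). Irf7 signal was 134.0, 169.4, 137.6 and 169.4 in the case animals, against 213.3, 172.7, 145.1, 209.8 and 128.6 in the controls. All 4 case values lay inside the range of the controls. The log2 difference of Irf7 was -0.16 ± 0.17 (SE, limma adjusted p = 0.909), and intervals of both genes include 0. Single animals moved both estimates: Irf1 was -0.16 without case animal 7, -0.18 without control animal 4 and -0.43 without case animal 5, and Irf7 was -0.086 without control animal 4, -0.092 without control animal 11, -0.11 without case animal 3 and -0.26 without control animal 12.

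**Figure D1:**
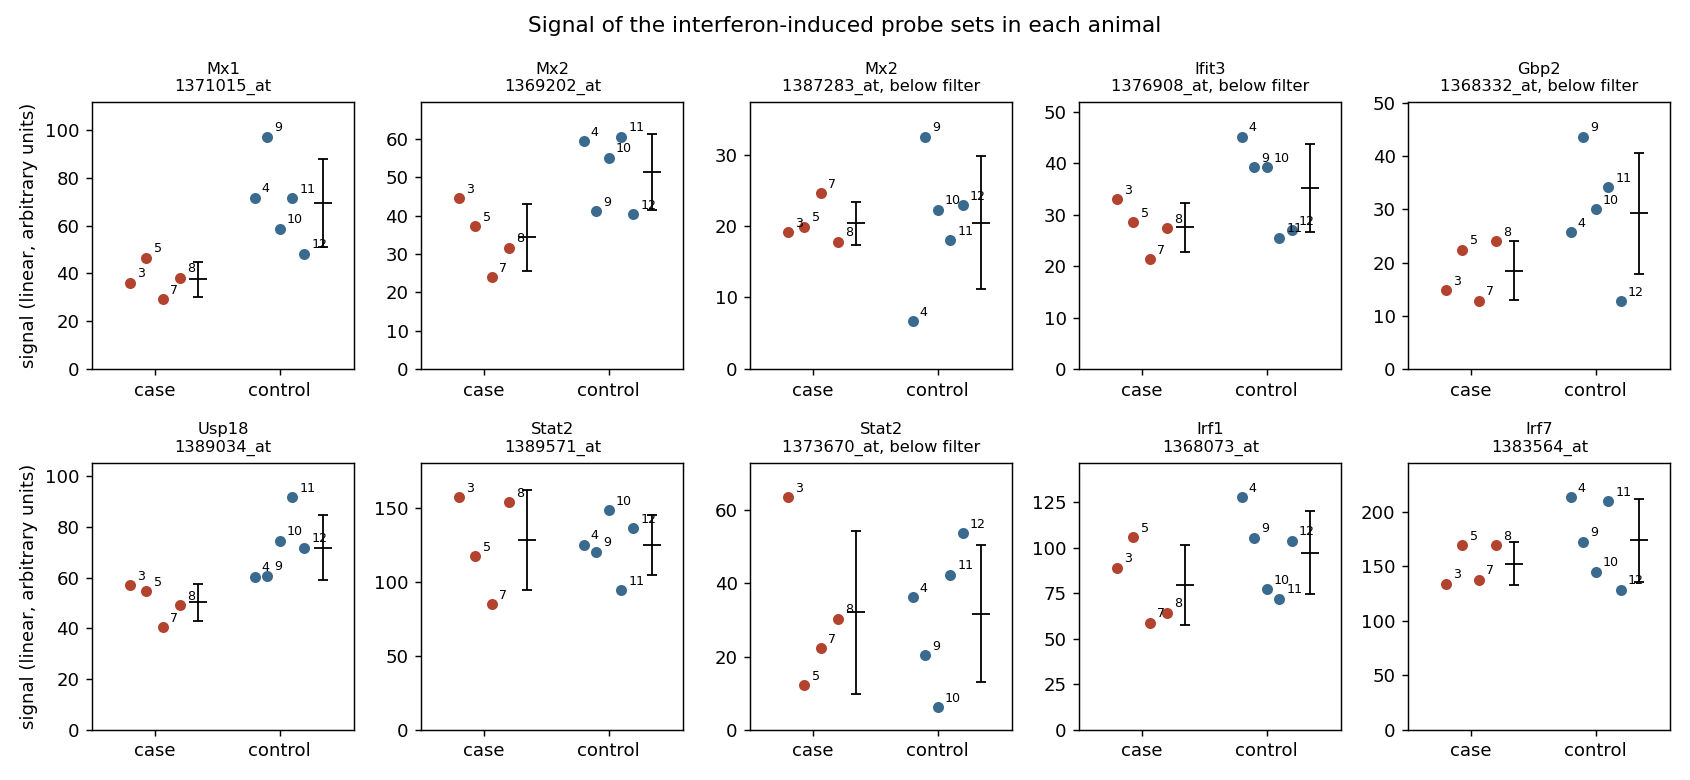
Signal of each of the 10 probe sets on a linear axis from 0 in arbitrary units, with the case animals left of the control animals in each panel, points numbered by animal, and mean ± SD beside each group (n = 4 case and n = 5 control). At Mx1 the case points run from 29.1 to 46.5 and the control points from 48.3 to 97.2, while at the brighter Stat2 probe set they run from 85.2 to 157.5 and from 94.4 to 149.0.

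**Figure D2:**
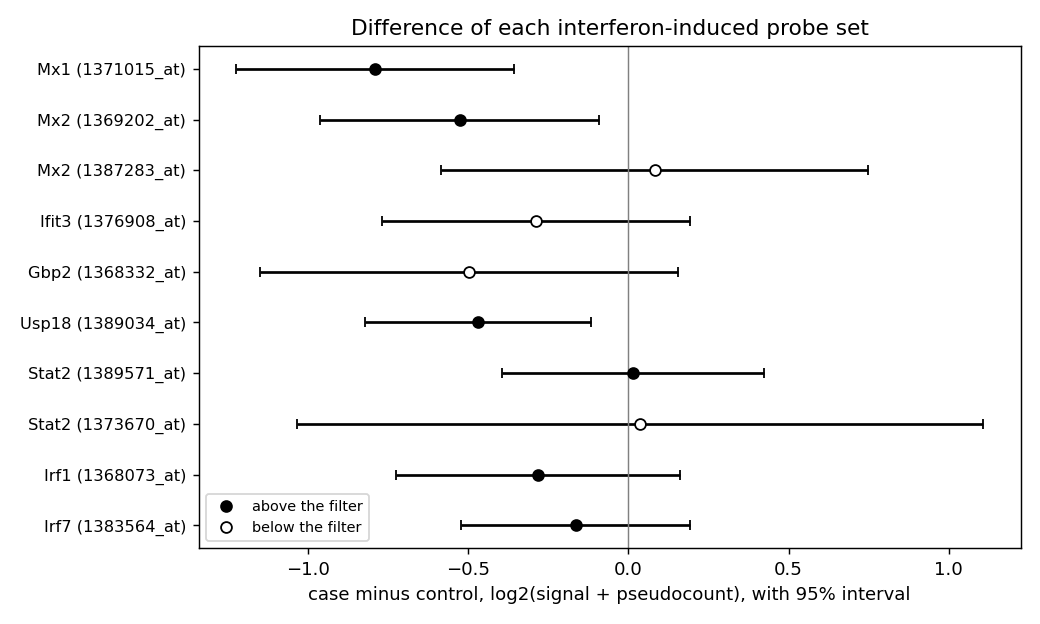
Case minus control difference of each probe set on the log2(signal + 5.03) scale with its 95% interval from limma, filled where the probe set was above the filter and open where it was below. The intervals of Mx1, of Mx2 at 1369202_at and of Usp18 lie wholly below 0, and the other 7 include 0.

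The differences can be set beside the promoter sequences shown above as a description only. The 3 genes with the response element in the window, Ifit3, Gbp2 and Irf7, had log2 differences of -0.29, -0.50 and -0.16. Irf1, with the gamma-activated sequence, had -0.28. Mx1 and Stat2, with neither string in the window, had -0.79 and, at the brighter probe set, 0.01. Among the other interferon-induced effectors listed for the pathway, 22 of the 26 genes on the array had a promoter in the table, and 16 of the 22 held the response element and 7 the gamma-activated sequence.

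Over all 10 probe sets the median log2 difference was -0.29, where the median over all 15866 probe sets other than array controls was -0.04 and 58.3% of these had an estimate below 0. It was -0.18 without case animal 7, -0.19 without control animal 4 and -0.16 without case animals 7 and 8. Case animal 7 had the lowest signal of all 9 at 6 of the 10 probe sets and was among the lowest 3 at 8 of them. Its log2 values averaged 0.43 below the probe sets' own means, at a mean centred value of -0.43. The same mean was 0.03 in case animal 3, -0.12 in case animal 5 and -0.12 in case animal 8, against 0.17, 0.25, 0.00, 0.19 and 0.03 in control animals 4, 9, 10, 11 and 12. Control animals 4 and 9 each had the highest signal at 3 probe sets, and control animal 11 and case animal 3 at 2 each. Both of the highest values of case animal 3 were at the Stat2 probe sets.

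Measures of RNA shortening were higher in some of the case animals. The ratio of the 3′ to the 5′ beta-actin control probe set, which rises as transcripts are shortened, was 1.57, 1.52, 3.05 and 3.11 in case animals 3, 5, 7 and 8, against 1.65, 2.0, 1.12, 1.73 and 1.94 in control animals 4, 9, 10, 11 and 12. The same ratio for Gapdh was 2.09, 1.55, 2.39 and 1.93 in the case animals, against 1.56, 1.63, 1.75, 1.57 and 1.79 in the controls, so that case animals 3, 7 and 8 exceeded every control. The 2 case animals with actin ratios above 3 were also the 2 lowest for Irf1 and Mx2 (1369202_at) and for Usp18, whereas at Mx1 case animal 8 lay above case animal 3. With the log2 actin ratio as a covariate the differences were -0.76 for Mx1, -0.34 for Mx2, -0.37 for Usp18 and -0.17 for Irf1. Without case animals 7 and 8, a choice made after the data had been seen, they were -0.66, -0.28, -0.32 and 0.03, so that of Irf1 changed sign. At an unadjusted p under 0.05 only Mx1 remained of the 6 in either setting. Whether shortening accounts for any of these differences was not tested.

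The arrays were processed in 3 fluidics runs on 1 day, told apart by their start times. Run 1 held case animals 3, 5 and 7 and control animal 4, run 2 held case animal 8 and control animals 9, 10 and 11, and run 3 held control animal 12. With the run as a block the log2 differences were -0.88 for Mx1, -0.67 for Mx2 (1369202_at), -0.40 for Usp18, -0.48 for Irf1 and -0.28 for Irf7. The interval of Usp18 then ran from -0.88 to 0.07 and included 0. Within run 1 they were -0.88, -0.71, -0.24, -0.60 and -0.53, each against a single control animal. Within run 2 they were -0.88, -0.63, -0.56, -0.36 and -0.04, each with a single case animal. For Mx1 and Usp18 the sign within a run could not change, since the groups did not overlap. The brighter Stat2 probe set had 0.13 with the block, -0.10 within run 1 and 0.36 within run 2.

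**Figure D3:**
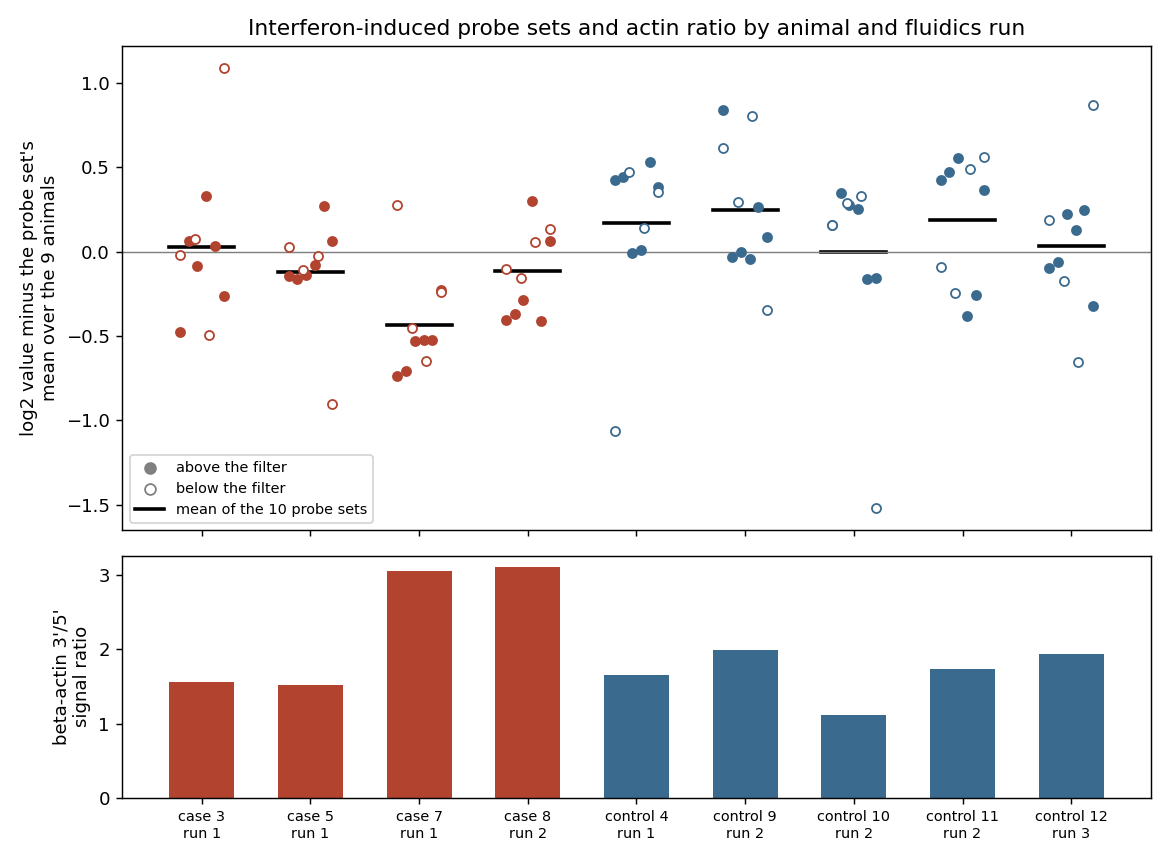
Upper panel, log2 value of each of the 10 probe sets minus its mean over the 9 animals, by animal with case left of control, filled above the filter and open below it, with a bar at the mean of the 10. Lower panel, the beta-actin 3′/5′ signal ratio on an axis from 0, where case animals 7 and 8 stand at 3.05 and 3.11 and the other 7 animals between 1.12 and 2.0.

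The rest of the pathway was read from 9 lists of genes by role, 133 genes in all, of which 72 had a probe set and 56 had one above the filter. Each gene was represented by its probe set with the highest mean. None of the 56 passed the limma test (smallest adjusted p = 0.644), 41 had an estimate below 0 and 15 above, and the median log2 difference was -0.13, against -0.02 over all probe sets tested. At an unadjusted p under 0.05, 9 were lower and 0 higher, where 363 of all 9519 probe sets tested (3.81%) were lower at that level. Without case animals 7 and 8 the number lower was 1 (149 of the 9519). Without case animal 7 alone it was 4 (268), and with the actin ratio as a covariate it was 4 (227). The count over all probe sets was smaller in each of these settings too, but the pathway count fell by a larger share. Zbp1 and Lgals9, which are among the 9, had case means of 32.4 and 32.6, under the filter level, and were above the filter only through the brighter controls.

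For the ligands, only Ifnb1 and Ifng had a probe set, both below the filter. Ifnb1, encoding interferon beta, averaged 3.40 in case and 4.74 in control, and Ifng, encoding interferon gamma, 8.20 in case and 7.08 in control, among the dim signals of the array. All 4 receptor genes measured were above the filter, with log2 differences from -0.16 for Ifnar1, a chain of the type I receptor whose 3 dimmer probe sets had -0.15 to 0.33, to 0.13 for Ifngr1, the ligand-binding chain of the gamma receptor. Of the signal transducers, Tyk2 had -0.08 and Irf9, the partner of STAT2, had -0.30 ± 0.17 (SE, limma adjusted p = 0.804). Stat3, which serves many cytokines, had -0.53 at 1 probe set and 0.02 at the other. Jak2 was below the filter. Jak1 had no probe set under its symbol and is not analysed here.

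Among the inhibitors of signalling, Socs3, which blocks receptor-bound Janus kinases, had a log2 difference of -0.59 ± 0.33 (SE, limma adjusted p = 0.799), and Ptpn2, Ptpn6 and Ptpn11, protein tyrosine phosphatases, had 0.03, 0.11 and 0.13. Irf3, which turns on interferon genes after nucleic acid sensing, had 0.15, and Irf8, a factor of myeloid cells, was below the filter with -0.62. Zbp1, a sensor of Z-form nucleic acid that is itself interferon-induced, had a signal from 21.1 to 42.6 in case and from 33.7 to 64.5 in control. Only control animal 11 lay within the case range, and its log2 difference was -0.50 ± 0.23 (SE, limma adjusted p = 0.745). The adaptors Mavs, Myd88 and Ticam1 and the kinase Tbk1 had differences between -0.17 and 0.18. Ube2l6, the conjugating enzyme for ISG15, had -0.11.

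The other interferon-induced effectors had 22 genes above the filter, 18 with an estimate below 0 and 4 above, a median of -0.21, and 5 lower at an unadjusted p under 0.05, a level at which 3.81% of all probe sets tested were lower. Cxcl10, a chemokine that draws T cells, had a signal of 39.8, 53.5, 35.2 and 38.3 in case animals 3, 5, 7 and 8, against 62.4, 63.7, 54.7, 57.9 and 58.8 in control animals 4, 9, 10, 11 and 12. It was the 1 gene of the 22 whose groups did not overlap with case lower, where 0.903% of all probe sets tested had such groups, with a log2 difference of -0.48 ± 0.15 (SE, limma adjusted p = 0.644). Parp14, an ADP-ribosyltransferase, was 97.2, 105.7, 75.3 and 75.1 in the case animals, against 161.2, 137.1, 122.8, 141.5 and 99.7 in the controls, where control animal 12 lay among the case values. Its log2 difference was -0.56 ± 0.16 (SE). Parp9, another member of that family, had -0.41, Lgals9, encoding galectin-9, had -0.54, and Bst2, encoding tetherin, which holds budding viruses at the cell surface, had -0.71 ± 0.28 (SE). Bst2 varied widely, from 124.6 to 237.4 in case and from 144.0 to 437.6 in control. Among the other genes of the list, Rsad2 had -0.28, Oasl -0.23, Ifit1 -0.19, Ifi27 -0.17, Ifitm2 0.03 and Oas1a 0.26.

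In antigen processing and presentation, which interferon gamma also induces, 16 genes were above the filter with a median of -0.07. The immunoproteasome genes Psmb9, Psmb10 and Psmb8 had -0.65, -0.59 and -0.36 (limma adjusted p from 0.644 to 0.744), while B2m had -0.05 and 0.03 at its 2 probe sets and Cd74 had -0.03. B2m encodes the light chain of class I molecules and Cd74 the invariant chain of class II. The case animals were not uniform at Psmb9, where case animal 5 had 86.6, the highest signal of all 9 animals. Case animals 3, 7 and 8 had 31.6, 42.2 and 37.1, and the controls ran from 63.7 to 85.7.

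**Figure D4:**
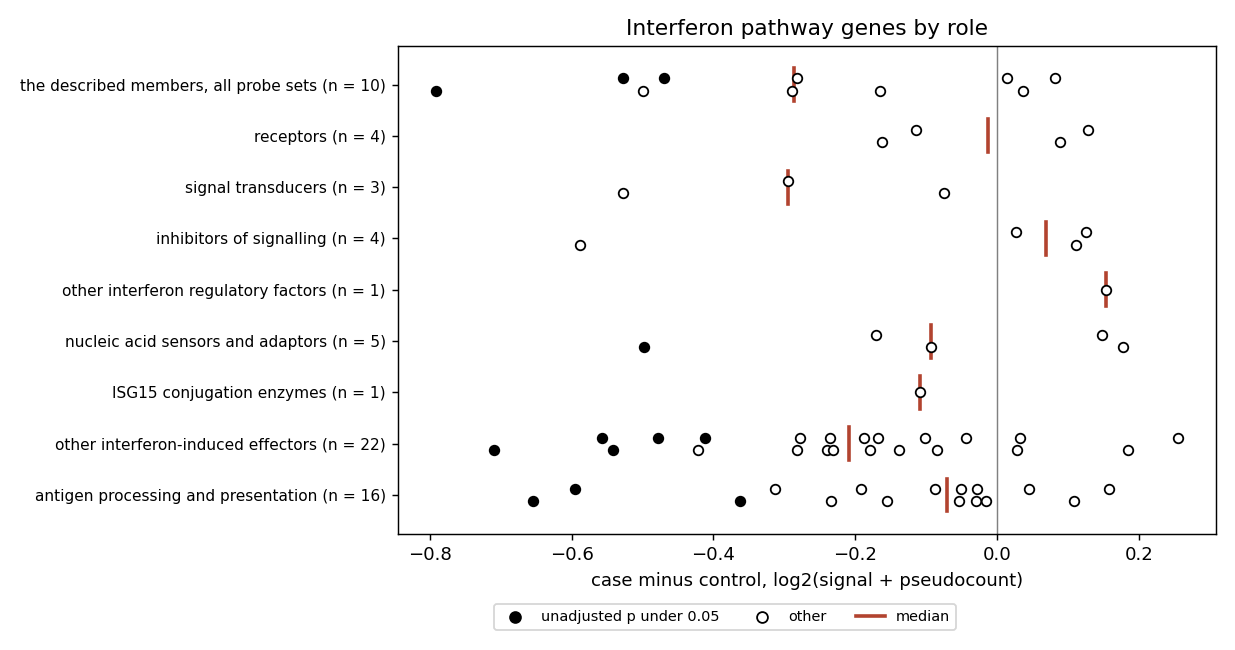
Case minus control difference on the log2(signal + 5.03) scale for the 10 described probe sets in the top row and for pathway genes above the filter in the rows under it, 1 point per probe set or gene, filled at an unadjusted p under 0.05, with the median of each row as a line. The medians are -0.29 for the described probe sets, -0.21 for the other effectors, -0.07 for antigen presentation and -0.01 for the receptors.

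Markers of immune cells were read beside these genes. All 8 pan-leukocyte markers listed had a probe set and 4 were above the filter, all 4 with an estimate below 0 (median -0.25). Their summed signal ran from 205.8 to 361.6 in case and from 299.5 to 398.7 in control. Lcp1, which encodes the actin-bundling protein plastin 2, had the smallest p of them, at 65.1, 81.1, 44.1 and 57.6 in case animals 3, 5, 7 and 8, against 131.6, 100.7, 110.5, 81.1 and 92.7 in control animals 4, 9, 10, 11 and 12 (log2 difference -0.71 ± 0.18, SE, limma adjusted p = 0.530). Laptm5 and Rac2 had log2 differences of -0.27 and -0.24. Cd53, at -0.002, was near 0, with means of 61.4 in case and 60.4 in control. Ptprc, which encodes CD45 and defines leukocytes, was below the filter at both probe sets, with means of 6.20 and 23.3 in case and 15.0 and 25.2 in control. Coro1a, another leukocyte marker below the filter, had a log2 difference of -1.11 ± 0.45 (SE). Cd52 and Cd37, also below the filter, had -0.17 and -0.13. Of 11 T and NK cell markers 3 were above the filter, all 3 with an estimate below 0 (median -0.13, sum 126.8 to 176.2 in case and 124.0 to 227.4 in control). Among those below the filter, Nkg7 had the lowest estimate, at -0.97 ± 0.31 (SE), and Prf1 the highest, at 0.32 ± 0.42 (SE). Between them, Cd8a, Gzmb, Cd3e, Cd3d, Cd2 and Klrd1 had -0.53, -0.44, -0.30, -0.28, -0.20 and -0.09. Of the 6 macrophage and dendritic cell markers with a probe set 5 were above the filter, 4 of them with an estimate below 0 and a median of -0.36. Their summed signal, most of it from Lyz2 (log2 difference 0.04), ran from 1016.1 to 1374.4 in case and from 1013.7 to 1631.5 in control. Cd14, counted among the 5 and among the 4, had a log2 difference of -0.43. Its case mean of 30.5 was under the filter level, and it was above the filter only through the brighter controls, with a mean of 41.2. Aif1 at its brighter probe set did not overlap between groups, at 49.7 to 59.4 in case and 59.8 to 106.8 in control. Of all probe sets tested, 0.903% had groups that did not overlap with case lower. The dimmer Aif1 probe set, below the filter, did overlap, at 20.6 to 43.2 in case and 22.6 to 38.4 in control (log2 difference -0.12). The neutrophil gene S100a9, below the filter, had a log2 difference above 0, of 1.54 ± 0.39 (SE). Its signal was 47.9, 22.6, 43.7 and 10.3 in the case animals, against 4.4, 3.4, 14.5, 8.2 and 3.2 in the controls. S100a8, the other neutrophil gene with a probe set and also below the filter, had 0.59 ± 0.35 (SE). No marker mean was at 0, and the part of these cells in the differences was not tested.

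Endothelial markers had 9 genes above the filter, 6 of them with an estimate below 0 and a median of -0.15, and their summed signal ran from 1123.6 to 1461.1 in case and from 1260.8 to 1379.9 in control. As a check of the tissue, 8 of the 9 kidney epithelial markers with a probe set were above the filter, led by Umod at 4459 in case and 4693 in control, and Kl was below it. Array medians were 45.2 to 55.6 signal units, with case animal 7 the lowest.

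The genes most like the set were ranked by Pearson r, over the 9 animals, between their log2 value and the mean of the 6 member genes above the filter. Among 8070 other probe sets with a single symbol the middle 90% of r lay between -0.64 and 0.71. The 6 genes with the highest r were Ccl4, Mapk12, Bspry, Ttyh3, Sorl1 and Parp14, all at 0.92. Parp14 is also in the pathway list, and the 3 other Sorl1 probe sets had r between 0.07 and 0.72. The 2 most negative were Psmd11 at -0.97 and Slc2a2 at -0.96, and the other Psmd11 probe set had -0.34. With the group means removed the same 8 probe sets had r from 0.79 to 0.96 for the positive ones and -0.95 for both negative ones. All points share the arrays and their scaling, and the lowest point of the member mean is case animal 7.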

How the data were processed

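Total RNA from kidney was measured on 9 RAE230A arrays, per the file headers. The deposited intensity table holds 1 linear signal per probe set, and the authors' scaling shows in the values, whose mean without the lowest and highest 2% was 100.02 or 100.03 on every array. For summarisation and background correction the sources used here name no method. The other fields, taken from the deposited experiment files, gave the fluidics runs, split where start times lay at least 10 minutes apart.

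Symbols came from the platform annotation, updated by Entrez ID through RefSeq GRCr8 (12748 of 12783 probe sets with a single symbol matched). The 57 control probe sets were left out. Signals were used as log2(signal + 5.03), the pseudocount being 10% of the table's median, filtered at the 40th percentile of the mean, and fitted with limma 3.58.1 in R 4.3.3 (lmFit, eBayes with trend, 2-sided, Benjamini-Hochberg, threshold 0.05). Members below the filter were taken from the same model on all 15866 probe sets. Probe sets were named by membership, by the pathway lists (unadjusted p under 0.05, brightest, largest difference) and by likeness, and further list genes were chosen after their values were seen. Members and lists were chosen with earlier results of these data known. Animals are separate samples with no pairing in the labels, with 1 array each. The tests therefore set each group difference against the variation between animals within groups. With 1 array per animal, that variation also holds differences of RNA quality and fluidics run. Alternatives covered the pseudocount, filter, normalization, trend, array weights, run, actin ratio and left-out animals. Of these steps, the limma fit was tested on simulated data with planted differences. Python 3.11.15 wrote the tables (pandas 2.3.3 with NumPy 2.4.6) and matplotlib 3.10.9 drew the figures.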

Additional observations from a re-analysis of the deposited data

Results flagged for a closer look

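Bst2 signal in case animal 5 was 237.4, where the other case animals lay between 124.6 and 140.3, so this animal stood far above its group. The Bst2 estimate was lower in case with this animal included, and the control range of 144.0 to 437.6 contains its value. Each group of the 10 described probe sets and of the 9 pathway genes with an unadjusted p under 0.05 was examined, 38 groups in all, and about 1 group in 20 would stand out so by chance. The cause was not tested.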

How the results depend on the processing

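No described probe set passed the threshold under any of the settings that gave an adjusted p, and Mx1, Mx2 (1369202_at), Usp18, Irf7, Ifit3 and Gbp2 kept their sign in every setting that gave them a value. The filter and trend settings do not alter an estimate, so they could not change a sign. For Mx1 and Usp18, whose groups did not overlap, neither could the pseudocount, array weights, left-out animals or a comparison within a run. Over all probe sets, limma called 0 in the fit as reported (637 at an unadjusted p under 0.05), 1 with no filter (Pheta1, below the filter otherwise), 1 with median centring (1375374_at, with no symbol) and from 0 to 52 when each animal was left out in turn, the 52 without case animal 5. Leaving out animals gave 0 to 1 pathway genes past the threshold, the 1 being Psmb9 without case animal 5. Of the 3 described probe sets with an unadjusted p under 0.05, 0 were left with the filter at the 60th percentile, which removes all 3, 1 with the actin ratio as a covariate and 1 without case animals 7 and 8. There were 2 with the run as a block, which loses Usp18, and 2 to 3 when each animal was left out, with Mx2 (1369202_at) lost without case animal 7 and without control animal 11. The count of such pathway genes, 9 as reported, was 4 with the stricter filter, 4 with the actin ratio, 1 without case animals 7 and 8, and 4 to 12 when each animal was left out. The median over the 10 probe sets, -0.29 as reported, was -0.53 within run 1, -0.20 with median centring and -0.21 with quantile normalization. Under these normalizations Mx1 had -0.70 and -0.69, and Irf7 had -0.076 and -0.17. The brighter Stat2 probe set, at 0.01, was -0.10 within run 1 and from -0.093 to 0.19 when each animal was left out, and Irf1 was 0.027 without case animals 7 and 8. The cause of these shifts was not tested. Signals near or below the filter limit Ifit3, Gbp2 and the dimmer Mx2 and Stat2 probe sets. In case, Mx1 and Mx2 (1369202_at) were also near the filter level of 33.3, with means of 37.4 and 34.3. Below that level lay case animal 7 at Mx1 (29.1) and case animals 7 and 8 at Mx2 (23.9 and 31.6).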
